A study of Homo sapiens with 6 samples.

Results

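This section describes 46 genes that build and run the DNA replication fork, leaving out the MCM helicase subunits, in the human myeloid leukemia line U-937 after delivery of a guide RNA against METTL1. The members were taken by symbol: all 46 listed symbols had a row among the 26810 gene rows of the deposited table. All 46 passed the filter on low values, which asked for 3 or more of the 6 libraries at 1 or above. Both groups derived from 1 Cas9-expressing single clone of U-937 and received guides by lentivirus. These were sgMETTL1.3 in 3 libraries and the control guide sgNS in 3 libraries. The labels give the line a KMT2A-MLLT10 fusion, which was not checked here. Selection used hygromycin (200 µg/ml) and blasticidin (10 µg/ml) in both groups, and cells were harvested about 8 to 10 days after transduction. METTL1 encodes the methyltransferase that, with WDR4, makes N7-methylguanosine in tRNA. There was 1 guide against METTL1 and 1 clone, so effects of that guide other than loss of METTL1 cannot be told apart from it, and the labels do not say that the replicates came from separate cultures. The p-values therefore reflect library-to-library spread only, and that spread may be technical.

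DNA replication is prepared in G1, when the origin recognition complex (ORC), CDC6 and CDT1 load the MCM helicase onto origins, a step called licensing. Geminin, encoded by GMNN, binds CDT1 and blocks further loading in S phase. The kinase CDC7 with its partner DBF4, together with CDC45, the GINS complex and TOPBP1, turns loaded helicases into moving forks. DNA polymerase alpha with primase starts each strand, polymerases delta and epsilon extend it on the PCNA clamp that the RFC complex loads, and further factors join Okazaki fragments, cover exposed single strands, stabilise stalled forks and reassemble chromatin. Most of these genes are expressed mainly in proliferating cells, and many are targets of the E2F transcription factors.

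The promoters of these genes were searched first, because sequence was not used to choose them and E2F proteins are known regulators of many replication genes. RefSeq promoter windows of 300 bases (250 before to 50 after the annotated start, build GRCh38.p14) were found for 42 of the 46 genes. E2F-type letters (TTTCCCGC, TTTGGCGC, TTTCGCGC or TTTGCCGC, on either strand) occurred in 15 of the 42 windows (35.7%), against 908 of 27305 promoter windows of the same length (3.33%). The CCAAT box of NF-Y occurred in 22 of the 42 windows (52.4%, against 35.7% of all windows), the E-box CACGTG in 5 (11.9%, against 7.43%) and the CHR-type letters TTTGAA in 2 (4.76%, against 15.4%). These are matches of letters, with no test and no measurement of binding. The full set of windows was not matched to the 46 genes for gene type, expression or base composition. The matches in genes described with values per library below are shown as 30-base windows, with the E2F-type letters in capitals as they read along the gene's own strand.
CDC6, chr17:40287875-40287904, plus strand: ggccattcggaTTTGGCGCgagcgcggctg
CDT1, chr16:88803743-88803772, plus strand: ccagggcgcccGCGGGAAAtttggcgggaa
GINS1, chr20:25407667-25407696, plus strand: agctttgttcgGCGCCAAAgcgcggagcgg
GINS2, chr16:85688967-85688996, minus strand: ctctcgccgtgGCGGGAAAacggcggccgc
POLE2, chr14:49688201-49688230, minus strand: ctgcggcggtgGCGCCAAAtcgcaaatatg
PCNA, chr20:5126663-5126692, minus strand: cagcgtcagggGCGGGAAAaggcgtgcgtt
LIG1, chr19:48170440-48170469, minus strand: acttcacccctTTTCCCGCcctcctcccat
Of the 15 matches, 13 began between 60 bases before and 10 bases after the start, and LIG1, at 114 bases before it, was 1 of the exceptions. GCGGGAAA, the reverse complement of TTTCCCGC, was the form in 7 of them. The median log2 fold change was -0.88 over the 15 genes with a match and -0.86 over the 27 without, and this difference was not tested. The order of these medians turned after the GC correction (-0.81 with a match, -0.97 without) and without sgMETTL1.3 replicate 1 (-0.85 and -0.94), among other settings.

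Values are TPM, a transcript level per length and library total, rescaled in each library to an equal sum of the ERCC spike-ins, which are synthetic RNAs added to each sample. The factors were 1.13 to 1.23 in sgNS and 0.832 to 1.03 in sgMETTL1.3 libraries, and over the 12449 tested genes the median log2 fold change was -0.32. As TPM, with the factor undone, it was 0.00, and both scales are given below. METTL1 transcript was 19.7, 22.0 and 20.3 in sgNS and 8.28, 5.94 and 7.42 in sgMETTL1.3 libraries. Its log2 fold change was -1.41 (limma adjusted p = 2.41e-06). The groups did not overlap, and 53.4% of all tested genes were separate in the same direction. METTL1 shares 107 exon bases with CYP27B1 on the same strand and 506 with EEF1AKMT3 on the opposite strand. Protein was not measured in these libraries. Of 12 myeloid markers, 9 were measured, CD33, SPI1, CEBPA, CD68 and LYZ among them, while MPO, ELANE and CD14 stayed below 1 in every library. All 5 epithelial markers of packaging cells stayed below 1, and CD3D, CD3G, MS4A1, HBB and HBA1 were listed at 0 in all 6 libraries. The library sgMETTL1.3 replicate 1 stood apart by GC content: its deviation from the other libraries of its group followed transcript GC (Spearman 0.837 across genes, which are not independent replicates). The depth behind the values is unknown.

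Transcripts of the replication genes were lower after sgMETTL1.3. On the spike-in scale 45 of 46 members fell (limma, adjusted p under 0.05), against 49.3% of all tested genes, and no member rose, against 6.4% of all genes. The remaining member, CDT1, did not pass. As TPM, 39 of 46 fell, against 26.6% of all genes, and none rose, against 24.4%; no member had a log2 fold change above 0 on either scale. The median log2 fold change of the members was -0.87 on the spike-in scale and -0.53 as TPM, which is 0.55 and 0.53 below the median of all tested genes on each scale. In 45 of 46 members every sgMETTL1.3 value lay below every sgNS value (53.4% of all tested genes), and as TPM this held for 41 (33.1% of all). A fall of at least 1 on the log2 scale was seen in 15 members, against 6.78% of all tested genes. In bulk RNA, fewer cells in S phase and less of each RNA per cell cannot be told apart.

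**Figure D1:**
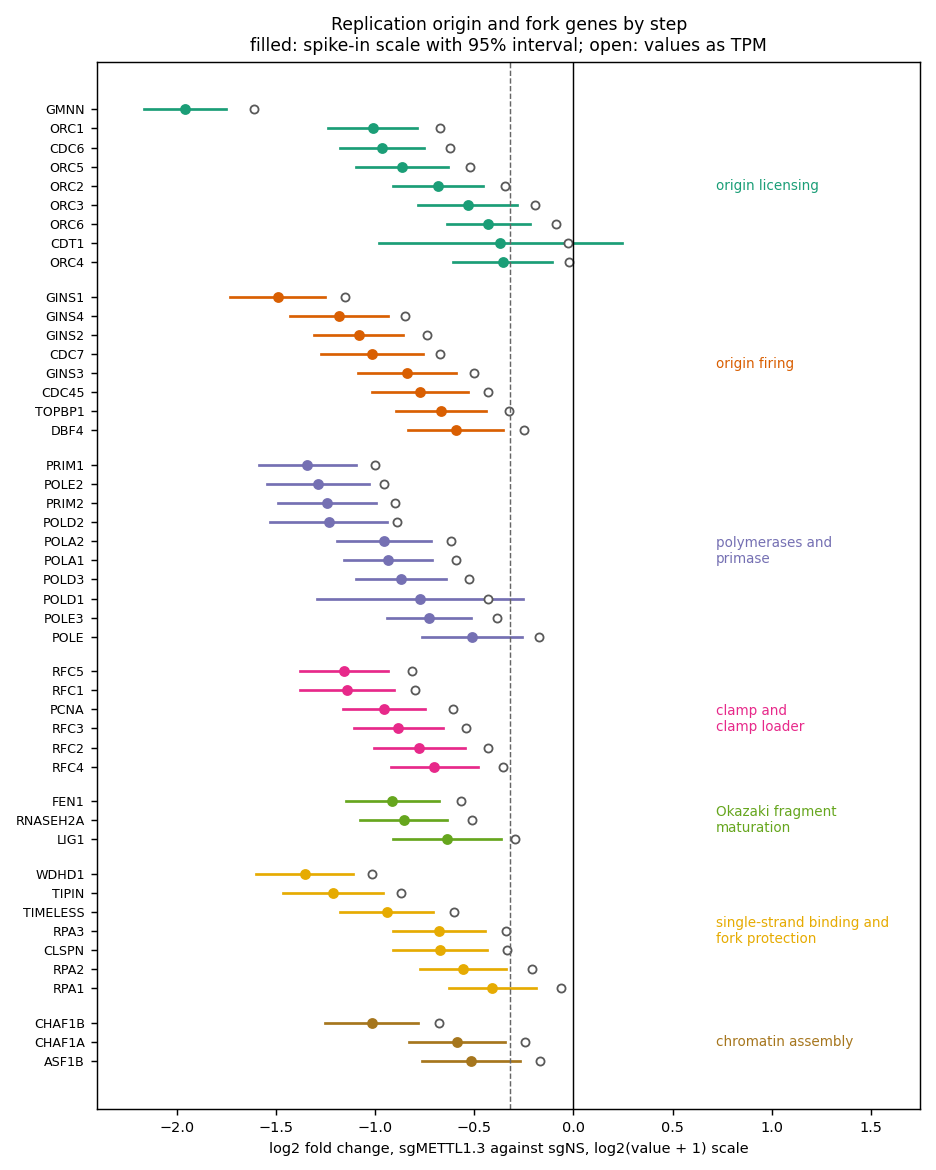
Log2 fold change of each of the 46 genes, sgMETTL1.3 against sgNS, grouped by step. Filled points with bars are the spike-in scale with its 95% limma interval, open points are the values as TPM, and the dashed line is the all-gene median on that first scale (-0.32). GMNN lies farthest left at -1.96, and the interval of CDT1 is the one that crosses 0.

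**Figure D2:**
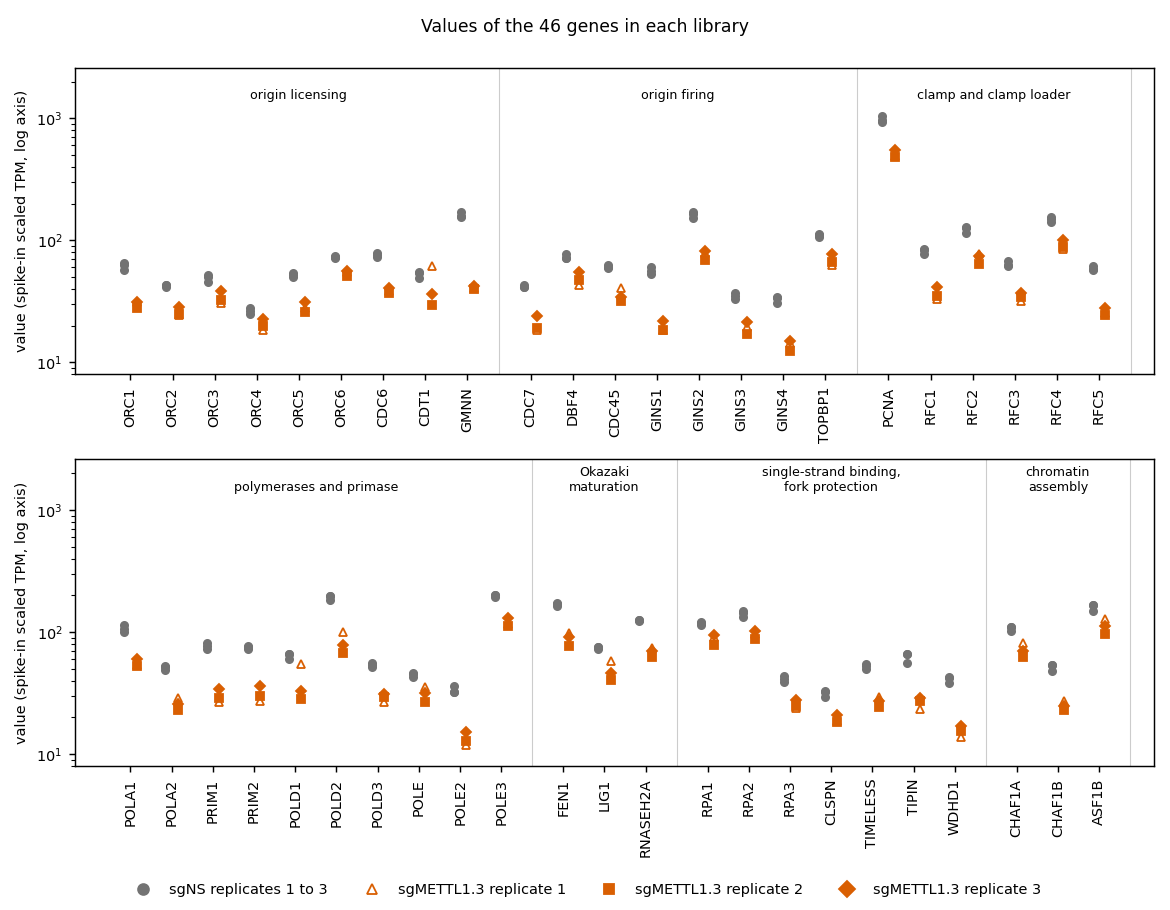
Values of the 46 genes in each of the 6 libraries on a log axis, in spike-in scaled TPM. Grey circles are the 3 sgNS libraries and orange symbols the 3 sgMETTL1.3 libraries. The groups are separate for every gene except CDT1, whose open triangle (sgMETTL1.3 replicate 1) lies above the controls.

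Among the licensing genes, GMNN fell most and CDT1, the protein partner of its product, did not pass. GMNN (chromosome 6, 24774931 to 24786099, GRCh38, GENCODE 29) had values of 156, 172 and 160 in sgNS and 40.7, 40.0 and 42.4 in sgMETTL1.3 libraries. The sgMETTL1.3 libraries kept 25.3% of the control mean and lay within a narrow band, from 162 ± 8.48 to 41.1 ± 1.22 (SD, n = 3; log2 fold change -1.96, SE 0.0964, limma adjusted p = 3.3e-08). Its log2 fold change was the lowest of the 46 genes on the spike-in scale, and as TPM it was -1.61 (limma adjusted p = 4.43e-05).

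CDT1 (chromosome 16, 88803213 to 88809258) had values of 49.6, 55.1 and 53.6 in sgNS and 62.0, 29.6 and 36.3 in sgMETTL1.3 libraries. Replicate 1 of sgMETTL1.3 was above all controls and the other 2 were below them, so the groups overlapped. The means were 52.8 ± 2.86 and 42.6 ± 17.1 (SD, n = 3), the log2 fold change was -0.37 with a 95% interval from -0.98 to 0.24, and it did not pass (limma adjusted p = 0.263). CDT1 had the highest transcript GC of the 46 genes, at 65.3%, and without sgMETTL1.3 replicate 1 its log2 fold change was -0.67. Without sgMETTL1.3 replicate 2 it was -0.15 and as TPM -0.029, and neither passed. After the GC correction it was -0.65. The fits without replicate 1 and with GC correction pooled the spread across genes without limit. Their p-values and calls are therefore not comparable with the others, and the p-values are not given.

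The other licensing factors fell by less than GMNN. CDC6, the ATPase that brings the helicase to ORC, had values of 73.4, 79.2 and 76.0 in sgNS and 38.2, 37.1 and 40.6 in sgMETTL1.3 (log2 fold change -0.96, limma adjusted p = 4.67e-06). ORC1, the ORC subunit whose level cycles, had 57.5, 65.1 and 62.4 against 31.1, 27.7 and 31.3 (log2 fold change -1.01, limma adjusted p = 5.12e-06). In both genes the 2 groups were clearly separate, with 50.7% and 48.7% of the control mean left. The remaining ORC subunits fell by 0.86 for ORC5, 0.68 for ORC2, 0.53 for ORC3, 0.43 for ORC6 and 0.36 for ORC4 on the log2 scale. ORC3, ORC4 and ORC6, named after their values were seen, did not pass as TPM, where their log2 fold changes were -0.19, -0.02 and -0.09. ORC4 also lost its call without sgNS replicate 2 (limma adjusted p = 0.097) or sgNS replicate 3 (0.0665). The step as a whole had 8 of 9 members lower, against 49.3% of all tested genes, and a median of -0.68. As TPM, 5 of 9 were lower, against 26.6% of all, with a median of -0.34.

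All 8 firing genes fell on the spike-in scale, against 49.3% of all tested genes, with a median of -0.93. As TPM, 7 fell, against 26.6% of all, with a median of -0.59. The GINS complex has 4 subunits, GINS1 to GINS4, that join CDC45 and MCM in the moving helicase. GINS1 (chromosome 20, 25407727 to 25452628) had values of 53.5, 60.9 and 56.2 in sgNS and 18.5, 18.5 and 21.9 in sgMETTL1.3 libraries. After that of GMNN, its log2 fold change was the lowest of the 46 genes (-1.49, SE 0.111, limma adjusted p = 5.32e-07). As TPM it was -1.15, and GINS1 kept 34.5% of the control mean on the spike-in scale. GINS4 had 30.7, 34.4 and 33.9 against 14.5, 12.5 and 15.0 (log2 fold change -1.18, limma adjusted p = 3.21e-06), and its exons overlap antisense transcripts. GINS2 had 152, 170 and 166 against 79.4, 68.5 and 81.6 (log2 fold change -1.08, limma adjusted p = 3.1e-06). In each of these 3 subunits the highest sgMETTL1.3 library was well under the lowest control, and GINS3 fell by 0.84 on the log2 scale. CDC7, the catalytic subunit of the origin-firing kinase, fell by 1.01 and its activator DBF4 by 0.59, and DBF4 (named after its values were seen) did not pass as TPM (limma adjusted p = 0.127). CDC45 fell by 0.77 and TOPBP1, a scaffold for helicase activation and checkpoint signalling, by 0.67.

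All 10 polymerase and primase genes fell, against 49.3% of all tested genes, with a median of -0.95. As TPM, 9 fell, against 26.6% of all, with a median of -0.60. PRIM1, the catalytic primase subunit, had values of 77.3, 81.1 and 72.2 in sgNS and 26.6, 28.9 and 34.1 in sgMETTL1.3 libraries (log2 fold change -1.34, limma adjusted p = 1.28e-06). PRIM2, its partner, had 72.2, 77.2 and 74.9 against 27.5, 30.1 and 35.9 (log2 fold change -1.24, limma adjusted p = 2.18e-06). The primase subunits thus had similar levels in every library and fell to 38.8% and 41.7% of the control mean. POLE2, the second subunit of polymerase epsilon, had 32.4, 36.4 and 32.5 against 11.9, 12.9 and 15.1 (log2 fold change -1.29, limma adjusted p = 2.42e-06). Its catalytic subunit POLE fell by 0.51, the smallest fall of this step, and the log2 fold change of the histone-fold subunit POLE3 was -0.73. POLA1 and POLA2 of polymerase alpha fell by 0.94 and 0.96.

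POLD1, POLD2 and POLD3, subunits of polymerase delta, differed in how the sgMETTL1.3 libraries spread. POLD3 fell by 0.87 with 26.6, 29.3 and 31.4 in these libraries, and POLD2 by 1.23 with 101, 67.4 and 78.0. The catalytic subunit POLD1 had 60.5, 66.0 and 66.7 in sgNS and 54.4, 28.4 and 33.2 in sgMETTL1.3 libraries, with replicate 1 close to the controls (log2 fold change -0.77, limma adjusted p = 0.02). POLD1, named after its values were seen, has a transcript GC of 64.8%. It did not pass as TPM (limma adjusted p = 0.0592), without sgNS replicate 2 (0.0669) or without sgMETTL1.3 replicate 3 (0.0555), and without sgMETTL1.3 replicate 1 its log2 fold change was -1.04.

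The clamp and all 5 clamp loader subunits fell on both scales, with a median of -0.92 on the spike-in scale and -0.57 as TPM. Of all tested genes, 49.3% fell on the spike-in scale and 26.6% as TPM. PCNA, the sliding clamp that holds the polymerases on DNA, had the highest level of the 46 genes, at 936.5, 1038 and 973 in sgNS and 495, 477 and 548 in sgMETTL1.3 libraries. It kept 51.6% of the control mean (log2 fold change -0.96, SE 0.0969, limma adjusted p = 4.52e-06). RFC5 had 57.9, 62.1 and 57.4 against 25.3, 24.6 and 28.1 (log2 fold change -1.16, limma adjusted p = 1.85e-06). RFC1, the large subunit, had 77.4, 85.1 and 82.8 against 33.2, 35.1 and 41.7 (log2 fold change -1.14, limma adjusted p = 3.22e-06). For all 3 genes the groups were far apart, and RFC3, RFC2 and RFC4 fell by 0.88, 0.78 and 0.70. Pseudogenes were looked for by name only and were found for 7 members: DBF4, FEN1, PCNA, POLD2, RFC3, RFC5 and RPA2. The sources used here do not say how reads were shared with such pseudogenes. Exon bases shared with another annotated gene were found in 24 of the 46 members. Among them, PRIM1 shares 362 bases with AC117378.1 and POLA2 shares 2012 with AP000944.2, both on the same strand.

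The 3 genes of Okazaki fragment maturation fell on both scales. Among all tested genes the share called lower was 49.3% with spike-in scaling and 26.6% as TPM. FEN1, the flap nuclease, had values of 163, 172 and 171 in sgNS and 98.8, 77.4 and 91.9 in sgMETTL1.3 libraries (log2 fold change -0.91, limma adjusted p = 1.47e-05). RNASEH2A, the catalytic subunit of the enzyme that removes ribonucleotides, had 125, 124 and 126 against 74.7, 62.4 and 69.4 (log2 fold change -0.86, limma adjusted p = 1.39e-05), and 1123 of its exon bases are shared with THSD8 on the same strand. LIG1, the ligase that seals the fragments, had 72.4, 76.2 and 76.1 against 58.1, 40.5 and 46.5 (log2 fold change -0.64, limma adjusted p = 0.000818). Controls were tight in all 3 genes. In each of them replicate 1 was the highest of the sgMETTL1.3 libraries, and their transcript GC ran from 53.7% to 58.4%.

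Among the 7 genes of single-strand binding and fork protection, WDHD1 and TIPIN fell most and RPA1 least. WDHD1, which tethers polymerase alpha to the helicase, had values of 38.4, 42.5 and 42.0 in sgNS and 13.8, 15.6 and 17.0 in sgMETTL1.3 libraries (log2 fold change -1.36, limma adjusted p = 1.22e-06). TIPIN had 55.7, 66.0 and 66.0 against 23.3, 27.3 and 28.8 (log2 fold change -1.21, limma adjusted p = 3.04e-06), and 579 of its exon bases are shared with the pseudogene RPL9P25. TIMELESS, with which TIPIN forms the fork protection complex, had 50.2, 55.3 and 53.3 against 29.5, 24.4 and 27.5 (log2 fold change -0.94, limma adjusted p = 1.12e-05). These 3 genes kept 37.7%, 42.3% and 51.3% of the control mean, with separate groups. RPA3, RPA2 and RPA1, the subunits of the single-strand binding protein, fell by 0.68, 0.56 and 0.41, and the checkpoint adaptor CLSPN by 0.67. RPA1, named after its values were seen, did not pass as TPM (log2 fold change -0.06, limma adjusted p = 0.407). The other 6 genes of this step fell as TPM, against 26.6% of all tested genes.

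The chromatin assembly genes fell unequally. CHAF1B, the middle subunit of chromatin assembly factor 1, had values of 48.2, 53.6 and 54.1 in sgNS and 27.5, 23.1 and 24.97 in sgMETTL1.3 libraries (log2 fold change -1.02, limma adjusted p = 6.71e-06). The large subunit CHAF1A had 101, 111 and 109 against 80.9, 62.2 and 70.7 (log2 fold change -0.59, limma adjusted p = 0.000604). ASF1B, a histone chaperone that hands H3 and H4 to that complex, had 149, 166 and 166 against 128, 97.2 and 112 (log2 fold change -0.52, limma adjusted p = 0.00181). All 3 fell as TPM too, to a lesser degree (-0.68, -0.24 and -0.17), against 26.6% of all tested genes.

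Ratios of partner genes within a library do not depend on the factor of that library, and 8 pairs chosen by function were compared. With 3 libraries in each group the smallest exact two-sided permutation p is 0.1, so no ratio could pass 0.05. CDT1 over GMNN was 0.318, 0.320 and 0.336 in sgNS and 1.52, 0.738 and 0.857 in sgMETTL1.3 libraries. CDT1 transcript was thus below GMNN transcript in all 3 controls, and the ratio was higher in each sgMETTL1.3 library (difference of log2 ratios 1.60, exact permutation p = 0.1, 0.133 adjusted over the 8). Without sgMETTL1.3 replicate 1 the difference was 1.29, and after the GC correction 1.16.

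CHAF1A over CHAF1B was 2.10, 2.07 and 2.02 in sgNS and 2.94, 2.70 and 2.83 in sgMETTL1.3 libraries, a small but separate shift (difference of log2 ratios 0.45). After the GC correction the log2 fold changes of CHAF1A and CHAF1B lay closer together, at -0.71 and -0.99, against -0.59 and -1.02 before it. POLE over POLE2 was 1.33, 1.25 and 1.42 against 3.01, 2.09 and 2.08 (difference of log2 ratios 0.83). With 1 library left out this difference was 0.65 at the lowest. Transcript GC was 55.1% for POLE and 38.0% for POLE2. After the GC correction their log2 fold changes also lay closer together, at -0.60 and -1.11, against -0.51 and -1.29 before it. CDC7 over DBF4 was 0.581, 0.563 and 0.586 against 0.422, 0.409 and 0.440, lower in every sgMETTL1.3 library (difference -0.45). ORC1 over ORC2 and RFC1 over RFC3 were lower in every sgMETTL1.3 library too, with differences of -0.33 and -0.26. Each of these 5 pairs had no overlap between groups and the exact permutation p of 0.1 (0.133 adjusted). The share of other gene pairs without overlap was not computed, so the separation cannot be called particular to these pairs. POLD1 over POLD3 overlapped between groups (difference 0.10, exact permutation p = 1) and its sign turned to -0.24 without sgMETTL1.3 replicate 1 and to -0.27 after the GC correction. TIMELESS over TIPIN overlapped as well (difference 0.28, exact permutation p = 0.2).

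**Figure D3:**
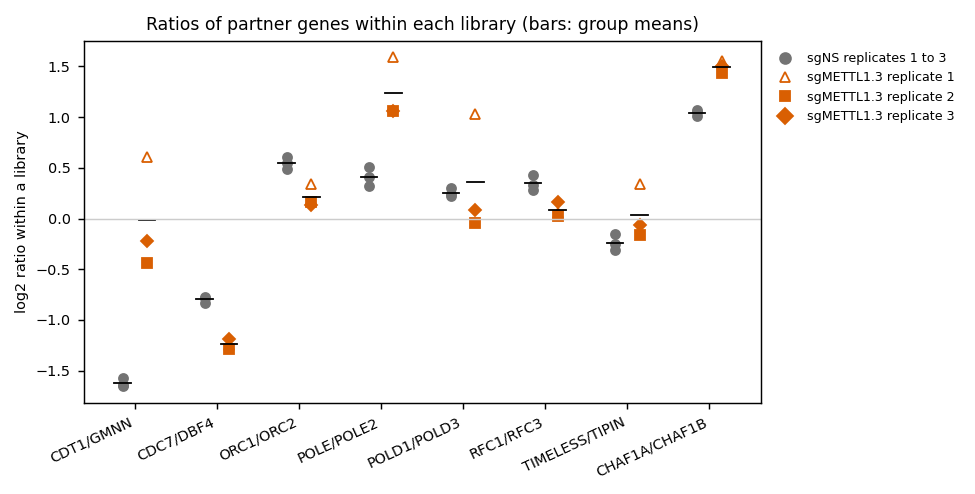
Log2 ratio of 2 partner genes within each library for 8 pairs; grey circles are sgNS, orange symbols sgMETTL1.3, and short bars the group means. CDT1/GMNN shows the widest gap between groups (difference 1.60), while POLD1/POLD3 overlaps and has the widest spread within sgMETTL1.3, with replicate 1 at a ratio of 2.05 and the others at 0.971 and 1.06.

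Transcript GC content moved with the spread inside the sgMETTL1.3 group. Over the 46 genes, whose GC ran from 38.0% to 65.3%, the log2 ratio of sgMETTL1.3 replicate 1 to the other 2 libraries had a Spearman correlation of 0.899 with GC, given as a description of genes that share these libraries. In all 8 members with a GC of at least 55%, replicate 1 had the highest value of its group, and in 6 of the 38 others. With the GC correction 45 of 46 members were called lower, against 58.9% of all tested genes, in a fit whose calls are not comparable with the others. CDT1 was at -0.65 there, and ORC4 (log2 fold change -0.18) was the member not called. With the GC correction of the values as TPM, 41 fell, against 33.8% of all tested genes, and 1 rose, again ORC4. As TPM without sgMETTL1.3 replicate 1, 42 fell, against 35.4% of all tested genes, and ORC4 rose by 0.11 on the log2 scale (limma adjusted p = 0.0338).

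**Figure D4:**
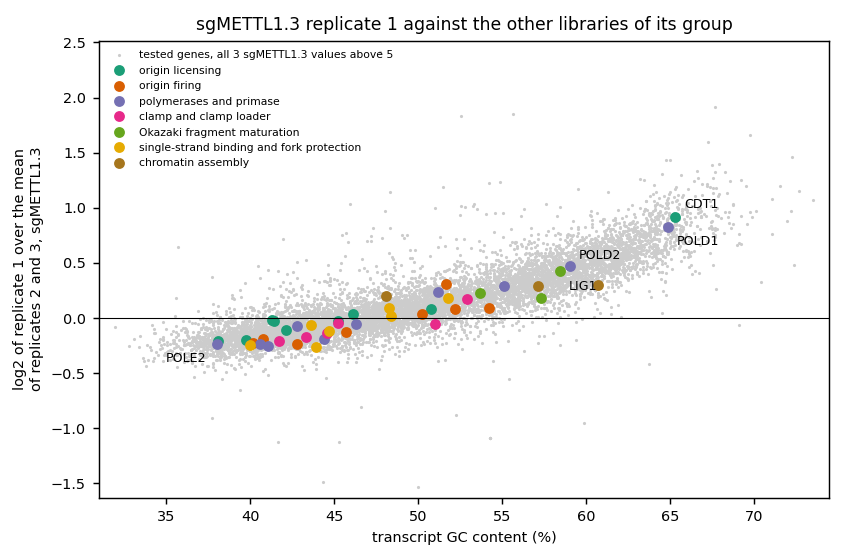
Log2 of sgMETTL1.3 replicate 1 over the mean of replicates 2 and 3 (vertical axis) against transcript GC content in percent (horizontal axis). Grey dots are tested genes with all 3 sgMETTL1.3 values above 5 and coloured dots the 46 replication genes by step. The coloured dots follow the same curve as the grey ones, with CDT1 (65.3% GC) and POLD1 (64.8%) highest among them.

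Other genes of the pathway were counted from lists that hold none of the 46 genes. All 6 MCM helicase subunits fell on both scales (against 49.3% of all tested genes with spike-in scaling and 26.6% as TPM). Their median was -0.83 on the spike-in scale and -0.48 as TPM. MCM6, MCM4 and MCM3 had log2 fold changes of -1.55, -0.88 and -0.83 on the spike-in scale. Of 36 other replication factors, 30 fell (against 49.3% of all tested genes), none rose (against 6.4%) and 6 did not pass, with a median of -0.63. As TPM, 19 fell (against 26.6%) and 2 rose (against 24.4%). SSRP1, a subunit of the FACT histone chaperone, fell from 340, 357 and 355 to 144, 127 and 147 (log2 fold change -1.33, limma adjusted p = 4.87e-07). MMS22L, a fork repair factor, and DSCC1, a subunit of an alternative clamp loader, fell with log2 fold changes of -1.49 and -1.19. POLD4, a small polymerase delta subunit, and TOP1, topoisomerase I, rose as TPM with log2 fold changes of 0.54 and 0.28, and were at 0.24 and -0.07 on the spike-in scale without passing.

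Markers of cycling cells were counted as well. Of 8 such markers 7 fell, against 49.3% of all tested genes, with a median of -0.68, and 5 fell as TPM, against 26.6%. CDK1, BUB1 and CCNB1 had log2 fold changes of -1.52, -0.98 and -0.87. CCNE1, which encodes cyclin E1 of the G1/S transition, had 20.4, 20.7 and 21.5 in sgNS and 18.7, 17.3 and 17.9 in sgMETTL1.3 libraries and did not pass (log2 fold change -0.20, limma adjusted p = 0.123). As TPM its log2 fold change was 0.13, and it did not pass (limma adjusted p = 0.185). As TPM without sgMETTL1.3 replicate 1, 6 of the 8 markers fell and 2 rose, against 4313 and 4231 of 12176 tested genes. The part of a changed share of cycling cells in the lower replication transcripts was not tested. The summed level of the 12 myeloid markers also moved, from 1109 to 1186 in sgNS libraries to 605 to 848 in sgMETTL1.3 libraries, and 6 of the 9 tested fell, against 49.3% of all tested genes. LYZ, from 385 to 414 in sgNS and 66.5 to 80.6 in sgMETTL1.3 libraries, carried most of that sum's fall, while CD68 (232 to 253 and 210 to 264), SPI1 and CEBPA overlapped between groups. The sum of 6 T and NK cell markers, nearly all of it NKG7, was 306 to 341 against 161 to 244, while CD2 of the same list rose from between 2.51 and 2.87 to between 4.85 and 5.81. The sum of 5 B cell markers was 7.85 to 10.1 against 6.31 to 10.96. The part of these shifts in the replication transcripts was not tested.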

How the data were processed

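Poly(A) RNA-seq libraries were made from 300 ng of total RNA with ERCC spike-ins, per the labels' protocols. The submitters' processing notes name cutadapt, STAR and RSEM with GRCh38 and hg38; for their versions, the strand setting and the annotation, the entry is "not given in the sources used here". As read from the values, the authors' deposited signal is TPM rescaled in each library to an equal sum over 92 spike-in entries; the depth is unknown. Genes at 1 or above in 3 or more libraries entered limma 3.58.1 as log2(value + 1) (trend and robust, R 4.3.3), Benjamini-Hochberg over 12449 genes, spike-ins left out. Fold changes on this scale understate the change of low genes. The fit was run on simulated data with independent noise for each gene. These data held no shared GC deviation such as that of sgMETTL1.3 replicate 1, so they do not test the calls under it. The design had no block; same-numbered libraries did not deviate together (correlations -0.039 to 0.005).

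GC content is the median over GENCODE 29 transcripts of a gene, and 94.3% of tested genes had a value. The GC correction subtracts from each library a lowess curve (span 0.3) of its deviation from the mean over libraries. Of the 46 members, 24 share exon bases with another annotated gene. Named were METTL1, the 3 members with the smallest p in each step, members that did not pass, and 3 genes from each other list; any further gene was named after its values were seen. PCLAF and STN1 were matched by their older symbols. The members and lists were chosen with earlier results of these data known.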

Additional observations from a re-analysis of the deposited data

How the results depend on the processing

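Scalings not tied to the spike-ins moved the counts. As TPM, with median-ratio rescaling and with quantile normalization, all genes called higher numbered 3021, 3142 and 2978 and all genes called lower 3295, 3344 and 3231 (797 and 6142 on the spike-in scale). The median log2 fold change of the 46 genes was -0.53, -0.51 and -0.48 with these 3, 5 of 9 licensing genes fell with each, and 19, 18 and 17 of 36 other replication factors fell. Quantile normalization left 33 of the 46 genes lower, with 1 chromatin assembly gene and 4 cycling markers. LIG1 (-0.22), CHAF1A (-0.16) and ASF1B (-0.07) did not pass there, nor did ASF1B and POLE with median ratios (-0.16 each). TOPBP1 (-0.25), POLE (-0.12) and RPA2 (-0.11), called as TPM, did not pass with quantile normalization either. There CDT1 turned to 0.030, RPA1 to 0.013 and ORC4 to 0.0025, and none of these passed. As TPM without sgMETTL1.3 replicate 1 and as TPM with GC correction, genes higher numbered 4231 and 3744, the member median was -0.48 and -0.49, and 1 member rose in each. A mean of at least 5 gave 510 genes higher, with fewer genes tested. The cause of these shifts was not tested beyond the scale itself. Leaving out 1 library gave 43 to 46 members lower, none higher, and member medians from -0.93 to -0.81. Over all genes, 534 to 1037 were higher and 4880 to 7538 lower. The 46 and the 7538 both came without sgMETTL1.3 replicate 1. The POLD1/POLD3 difference ran from -0.24 (without sgMETTL1.3 replicate 1) to 0.30, and was -0.27 after GC correction. The CDT1/GMNN difference ran from 1.29 to 1.81. With the replicate block, 46 members fell, CDT1 included (-0.37), and 814 genes rose and 5861 fell; the replicate numbers are not known to pair the libraries, and no sgMETTL1.3 library correlated with its own number above 0.005. On the spike-in scale, the fits with the block, with GC correction and without sgMETTL1.3 replicate 1 pooled the spread without limit. Their calls are not comparable with the others. Of 23 named genes, 19 kept direction and side under all 19 alternatives, and 33 of the 46 genes were lower under all of them. Both counts include the fits whose calls are not comparable. The share of all tested genes lower under every setting was not computed. Pseudocounts, filters and the fit without trend left 45 members lower. With pseudocounts of 0.5 and 5 and without trend, 6139, 6163 and 6098 of all 12449 tested genes were lower. With no filter 5911 of 19730 were lower, and with a mean of at least 5 it was 5637 of 10166. The depth is unknown, so no counting error is given.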
